A study of Arabidopsis thaliana with 9 samples.

Results

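Plant cells can grow only as far as their walls yield, and 2 families of secreted proteins are known for making them yield. Expansins loosen the wall without cutting it, by weakening the contacts between cellulose and the polymers around it. Xyloglucan endotransglucosylase/hydrolases (XTHs) cut xyloglucan, the chain that coats and tethers cellulose, and join the cut end to another xyloglucan chain or to water. In a germinating seed both families act in the embryo as the radicle elongates and in the endosperm that it has to break through. Described here are 4 such genes of Arabidopsis thaliana, the alpha-expansin genes EXPA4 (AT2G39700) and EXPA15 (AT2G03090) and the genes XTH18 (AT4G30280) and XTH33 (AT1G10550). Their probe sets were taken by gene name from the annotation of the array, which assigns exactly 1 probe set to each of them and no other gene to that probe set. The 4 genes were chosen with earlier results of these data known. Shares over all probe sets given beside them are therefore descriptive and test nothing. They are 4 of the 22746 non-control probe sets, and 4 of the 29 expansin and XTH genes with a probe set of their own.

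The arrays compared whole germinating seeds of 3 genotypes, with 3 arrays each. mARF10 seeds carried a transgene of AUXIN RESPONSE FACTOR10, a repressor-type transcription factor of the auxin response, with 4 mutations in the site that microRNA160 recognises. ARF10 seeds carried the same construct with the site intact, and Col-0 seeds were of the wild-type accession. Both transgenes held 3 kb of the gene's own upstream sequence and 2.3 kb of coding sequence fused to GFP. How many transformed lines stood behind each genotype was not given in the sources used here, and the transcript of the transgene was not analysed here. All seeds were imbibed in water (3 ml), kept dark at 4 °C for 3 days and then held for 22 h at 22 °C in the light, and each sample held 3 seed lots. Values are log2 signals, so a step of 1 is a doubling, and means are given ± SD (n = 3). In whole seeds, fewer cells of a type and less RNA per cell cannot be told apart.

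The array of Col-0 replicate 2 stood apart from the others on the 1st principal component of all tested probe sets. Correlations between arrays of a genotype ran from 0.968 to 0.997, and those between arrays of different genotypes from 0.967 to 0.995. Col-0 replicate 2 had the lowest mean of the 5 measured greening markers (of 8 listed), at 8.80 against 9.61 to 10.28 on the other arrays. Mean levels of seed reserve and late embryogenesis markers were lower on every ARF10 array than on any other, while mARF10 and Col-0 arrays overlapped. The 5 measured storage protein and oil body genes (of 15 listed) averaged 9.63 to 10.54 on mARF10 arrays and 7.59 to 8.31 on ARF10 arrays. On Col-0 replicates 1, 2 and 3 they averaged 8.55, 9.68 and 9.92. The 7 measured late embryogenesis abundant genes (of 10 listed) averaged 8.76 to 9.20 on mARF10 arrays, 7.50 to 7.77 on ARF10 arrays and 8.26 to 8.94 on Col-0 arrays. Over the 9 arrays the storage and oil body mean had a Pearson r of 0.32 with EXPA4, -0.26 with EXPA15, -0.58 with XTH18 and -0.50 with XTH33, and the greening mean had 0.56, -0.65, 0.62 and 0.22 with them in that order. The part of these marker differences in the values of the 4 genes was not tested. Of the endosperm and seed coat markers only the seed coat gene BAN was measured, at 6.33 to 6.68 over all arrays.

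All 4 genes passed the filter on low values, with means over the 9 arrays of 8.42 for EXPA4, 9.82 for EXPA15, 9.87 for XTH18 and 9.03 for XTH33, against a filter at 5.72. None of the 4 was called in any of the 3 comparisons at an adjusted p of 0.05 by limma, a moderated linear model fitted to all 15922 tested probe sets at once. In the comparison of mARF10 with ARF10 limma called 0.408% of the tested probe sets (0.314% higher and 0.0942% lower in mARF10), and in both comparisons with Col-0 it called 0%. The unadjusted p was under 0.05 for 1 of the 4 genes between mARF10 and ARF10, where 10.9% of all tested probe sets had such a p. It was under 0.05 for 2 of the 4 between mARF10 and Col-0 (10.7% of all) and for 1 of the 4 between ARF10 and Col-0 (4.64% of all). The test of any difference among the 3 genotypes gave adjusted p = 0.563 for EXPA4, 0.554 for EXPA15, 0.642 for XTH18 and 0.519 for XTH33, and called 0.0816% of all probe sets.

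**Figure D1:**
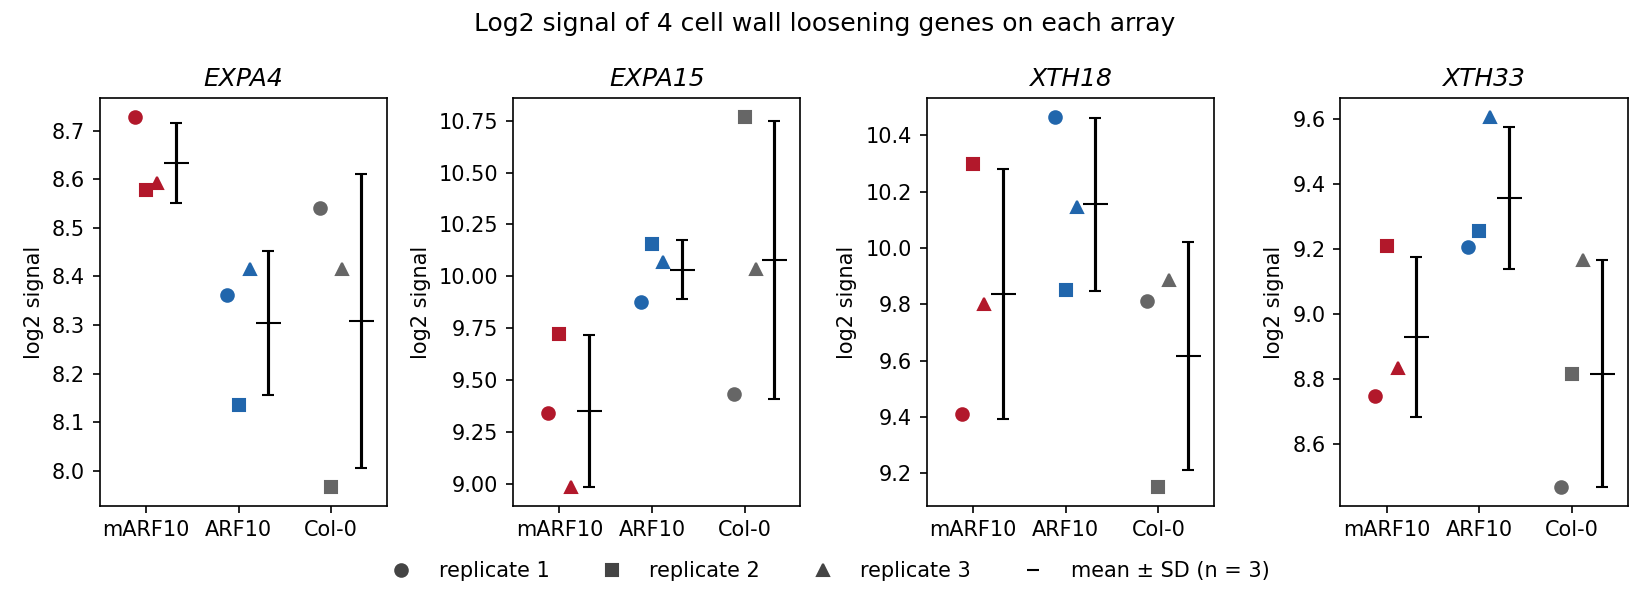
Log2 signal (y axis, a separate scale in each panel) of EXPA4, EXPA15, XTH18 and XTH33 on each of the 9 arrays, by genotype; symbols stand for replicates and bars for the mean ± SD of 3 arrays. EXPA4 is highest and EXPA15 on average lowest in mARF10 seeds, while XTH18 and XTH33 have their highest means in ARF10 seeds.

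EXPA4 had the narrowest spread of the 4. Its log2 signals were 8.73, 8.58 and 8.59 in mARF10 seeds. They were 8.36, 8.14 and 8.42 in ARF10 seeds and 8.54, 7.97 and 8.42 in Col-0 seeds. Every mARF10 array thus lay above every array of both other genotypes, and the ARF10 and Col-0 arrays overlapped. Such a separation was found in 9.58% of all tested probe sets for mARF10 above ARF10, and in 5.26% for mARF10 above Col-0 (7.12% for mARF10 below Col-0).

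The EXPA4 mean was 8.63 ± 0.08 in mARF10 seeds, 8.30 ± 0.15 in ARF10 seeds and 8.31 ± 0.30 in Col-0 seeds. The mARF10 mean was above the ARF10 mean by a log2 difference of 0.33 (SE 0.14, 95% interval 0.0036 to 0.65), which is 1.26-fold, with limma adjusted p = 0.453. Against Col-0 the difference was also 0.33 (SE 0.14, adjusted p = 0.467 by limma). Much of that difference rested on 1 array: without Col-0 replicate 2, the lowest of the 9, it was 0.15 (limma adjusted p = 0.697). ARF10 and Col-0 seeds differed by -0.0032 (interval -0.33 to 0.32), and the sign of this difference turned with the array left out and with the normalization. The means thus ran mARF10 first and then Col-0 and ARF10. Col-0 and ARF10 did not differ beyond their spread, and neither difference of mARF10 from them passed.

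EXPA15, known from work on roots and the shoot apex as an expansin of growing tissue, ran the other way. Its log2 signals were 9.34, 9.72 and 8.99 in mARF10 seeds, 9.87, 10.15 and 10.07 in ARF10 seeds, and 9.43, 10.77 and 10.03 in Col-0 seeds. All mARF10 arrays were below all ARF10 arrays, as in 12.7% of tested probe sets, whereas Col-0 replicate 1 lay among the mARF10 arrays. The highest of the 9 values was that of Col-0 replicate 2.

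The EXPA15 mean was 9.35 ± 0.37 in mARF10 seeds and 10.03 ± 0.14 in ARF10 seeds. The log2 difference was -0.68 (SE 0.30, interval -1.36 to 0.0019). That is 1.60-fold lower in mARF10 and did not pass (adjusted p = 0.460 by limma). In size it was larger than the differences of 98.3% of tested probe sets. With array weights estimated from these same values the difference was -0.84 and passed (limma adjusted p = 0.0292). That fit called 784 of the 15922 tested probe sets, against 65 in the main fit. Over all alternatives the limma adjusted p of EXPA15 in this comparison ran from 0.0292 to 0.805.

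Against Col-0 seeds, at 10.08 ± 0.67, EXPA15 in mARF10 seeds differed by -0.73 (SE 0.30, interval -1.41 to -0.045, limma adjusted p = 0.460). This value depended on which Col-0 array was present. Leaving out Col-0 replicate 2 gave -0.38, and leaving out Col-0 replicate 1 gave -1.05. On Col-0 replicate 2 the mean of the measured greening markers was also lowest, as given above. Col-0 replicate 1 had the lowest storage and oil body mean of the Col-0 arrays (8.55). The part of either in the EXPA15 values was not tested. ARF10 and Col-0 seeds differed by -0.05 (SE 0.30), or by 0.30 without Col-0 replicate 2.

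XTH18, which in roots is active in the elongating and differentiating zones, gave log2 signals of 9.41, 10.30 and 9.80 in mARF10 seeds. They were 10.47, 9.85 and 10.15 in ARF10 seeds and 9.81, 9.15 and 9.89 in Col-0 seeds. The 3 genotypes overlapped in every pairing. The means were 10.16 ± 0.31 in ARF10, 9.84 ± 0.44 in mARF10 and 9.62 ± 0.40 in Col-0 seeds. Neighbours in this order from highest to lowest did not differ beyond their spread.

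The log2 difference of XTH18 between mARF10 and ARF10 was -0.32 (SE 0.26, interval -0.91 to 0.28, limma adjusted p = 0.724). It shrank to -0.10 without mARF10 replicate 1. Between mARF10 and Col-0 it was 0.22 (SE 0.26, limma adjusted p = 0.750) and turned to -0.01 without Col-0 replicate 2, and likewise without mARF10 replicate 2. Between ARF10 and Col-0 it was 0.54 (SE 0.26, interval -0.06 to 1.14, limma adjusted p = 0.892), which is 1.45-fold. Same-numbered ARF10 and Col-0 arrays, which were taken as pairs, differed by 0.66, 0.70 and 0.26, all higher in ARF10. With the pairs as a block in these 6 arrays the SE was 0.11 and the difference still did not pass (limma adjusted p = 0.737). The pairing was chosen from correlations in these same data, so the smaller SE is no independent support. Without Col-0 replicate 2, the lowest array for this gene, that difference was 0.31.

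XTH33, an XTH known to be held at the plasma membrane, was highest in ARF10 seeds. Its log2 signals were 8.75, 9.21 and 8.83 in mARF10 seeds, 9.21, 9.26 and 9.61 in ARF10 seeds, and 8.47, 8.81 and 9.17 in Col-0 seeds. Every ARF10 array lay above every Col-0 array, as in 5.59% of tested probe sets (3.61% had every ARF10 array below). mARF10 replicate 2 reached just above the lowest ARF10 array, and the mARF10 and Col-0 arrays overlapped.

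The XTH33 means were 8.93 ± 0.25 in mARF10, 9.36 ± 0.22 in ARF10 and 8.82 ± 0.35 in Col-0 seeds. ARF10 exceeded Col-0 by 0.54 on the log2 scale (SE 0.19, interval 0.11 to 0.98), 1.46-fold, with an unadjusted p of 0.0199 and adjusted p = 0.892 by limma. The 3 pairs of same-numbered arrays differed by 0.74, 0.44 and 0.44, and with the pairs as a block in these 6 arrays the SE was 0.09 and the limma adjusted p = 0.737. Unlike the values of both expansin genes, this one did not depend on Col-0 replicate 2 (0.54 without it), and it ran from 0.37 to 0.72 when each array was left out in turn. The mARF10 mean was below the ARF10 mean by -0.43 (SE 0.19, interval -0.86 to 0.0073, limma adjusted p = 0.465). mARF10 and Col-0 seeds differed by 0.11 (SE 0.19), a value that changed sign without mARF10 replicate 2 (-0.03) or Col-0 replicate 1 (-0.06).

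**Figure D2:**
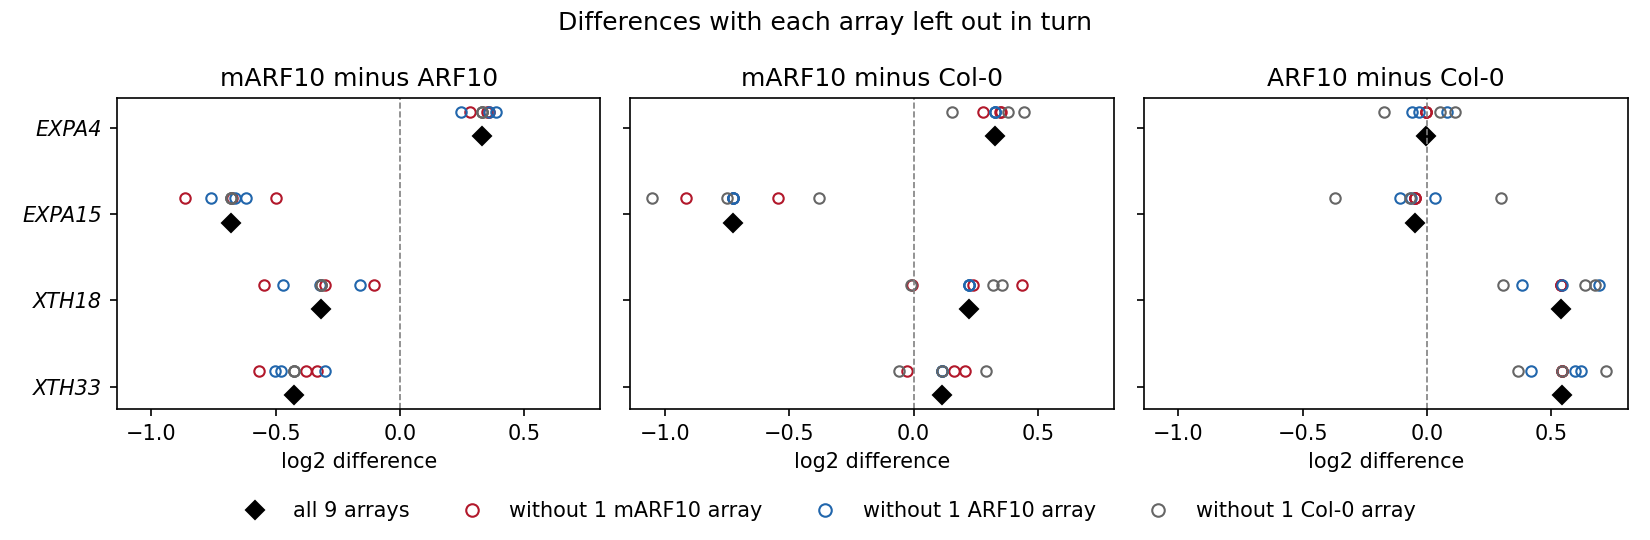
Log2 differences (x axis) of the 4 genes in the 3 comparisons, with all 9 arrays (diamonds) and with each array left out in turn (open circles, coloured by the genotype of the array left out). EXPA15 against Col-0 in mARF10 seeds moves between -1.05 and -0.38, while the ARF10 minus Col-0 difference of XTH33 stays between 0.37 and 0.72.

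Between mARF10 and ARF10 seeds, 1 of the 4 genes was thus higher and 3 were lower, and the arrays did not overlap in 2 of the 4, EXPA4 and EXPA15, against 22.3% of all tested probe sets. In the comparison of mARF10 with Col-0, 3 were higher and 1 was lower, with 1 gene not overlapping (12.4% of all). Between ARF10 and Col-0, 2 differences were positive and 2 negative, with 1 gene not overlapping (9.20% of all). Over all tested probe sets 42.8%, 46.8% and 52.8% were higher in these comparisons, in the same order. The comparisons share arrays, so the values of a gene in different comparisons are not independent.

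The 2 expansin genes ran opposite to each other over the arrays. Over the 9 arrays the log2 signals of EXPA4 and EXPA15 had a Pearson r of -0.88, and r was -0.78 without Col-0 replicate 2. After each genotype's mean was subtracted r was -0.79, but only -0.39 when Col-0 replicate 2, extreme in both genes, was also omitted. Among all tested probe sets, 1.11% had an r with EXPA4 at least as low, and 3.57% had one with EXPA15. The points share their arrays, and that 1st principal component, which held 43.9% of the variance, correlated with EXPA4 at a size of 0.81 and with EXPA15 at 0.88.

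XTH18 and XTH33 went together more loosely, with an r of 0.59 over the 9 arrays, 0.60 without Col-0 replicate 2 and 0.34 within genotypes. An r at least as high was found for 7.33% of tested probe sets with XTH18 and for 3.99% with XTH33. Between the families, both pairs with XTH18 changed sign with Col-0 replicate 2. EXPA15 and XTH18 had an r of -0.19 over the 9 arrays and 0.46 without that array, and EXPA4 and XTH18 had 0.26 and -0.38. Both pairs with XTH33 kept their sign. EXPA15 and XTH33 had 0.38 and 0.76, and EXPA4 and XTH33 had -0.21 and -0.56.

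**Figure D3:**
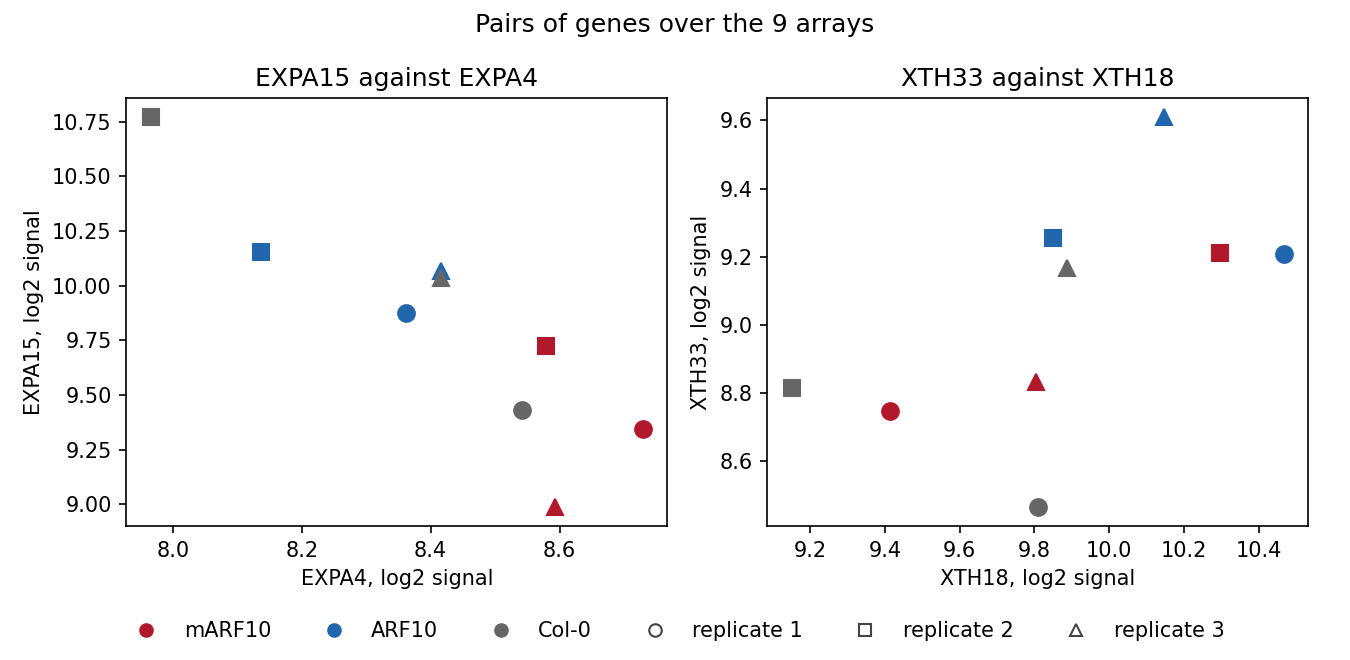
Log2 signal of EXPA15 against EXPA4 (left) and of XTH33 against XTH18 (right), 1 point per array, coloured by genotype with symbols for replicates. EXPA15 falls as EXPA4 rises along the 9 arrays (r of -0.88), with Col-0 replicate 2 at one end and the mARF10 arrays at the other; the XTH genes scatter more widely (r of 0.59).

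Whether relatives behaved likewise was described over both families. The gene table lists 70 expansin and XTH genes, of which 29 had a probe set of their own and 21 passed the filter. Apart from the 4 genes these were 13 expansin and 4 XTH relatives, and none was called in any comparison. A further 8 relatives lay below the filter, among them XTH20, XTH21, XTH26, XTH29 and EXPA16, and 2 probe sets shared by several expansin genes were not used.

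Of the 13 measured expansin relatives, 11 were lower and 2 higher in mARF10 than in ARF10 seeds, with a median log2 difference of -0.11. Over all tested probe sets 9111 of 15922 were lower and the median was -0.02. EXPB1, a beta-expansin gene, differed most clearly. Its log2 signals were 7.07, 7.03 and 6.80 in mARF10 seeds, against 7.42, 7.26 and 7.32 in ARF10 seeds and 7.23, 7.28 and 7.30 in Col-0 seeds. All mARF10 arrays were below all others. Every mARF10 array lay below every ARF10 array in 12.7% of tested probe sets, and below every Col-0 array in 7.12%. EXPB1 in mARF10 differed by -0.37 from ARF10 (SE 0.09, adjusted p = 0.133 by limma) and by -0.31 from Col-0 (SE 0.09, adjusted p = 0.365 by limma). EXPA20 had a smaller difference from ARF10 of 0.14, and the expansin-like gene EXLB1 one of -0.13.

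EXPA4 was thus one of 3 measured expansin genes, with EXPA20 and EXPB5 (0.01, named after its value was seen), whose mean was higher in mARF10 than in ARF10. Against Col-0, EXPA20 shared its direction: mARF10 seeds had 10.83 ± 0.06 and Col-0 seeds 10.53 ± 0.12, without overlap (difference 0.30, adjusted p = 0.370 by limma). Such a separation was found in 5.26% of tested probe sets. In that comparison 5 expansin relatives were higher and 8 lower, with a median of -0.02 against -0.01 over all probe sets. Of all tested probe sets 46.8% were higher. EXPA7, a gene of root hairs, differed by 0.14. Between ARF10 and Col-0, 11 expansin relatives were higher and 2 lower, with a median of 0.08 against 0.01 over all. Of all tested probe sets 52.8% were higher there. The smallest p belonged to EXPA20 (difference 0.16), EXLB1 (0.15) and EXLA1 (0.40), none of which passed.

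Of the 4 measured XTH relatives, 3 were higher and 1 lower in mARF10 than in ARF10, where 42.8% of all tested probe sets were higher. XTH32, which belongs to the XTH branch whose enzymes are thought to cut xyloglucan rather than rejoin it, had 6.61 ± 0.23 in mARF10 seeds and 6.22 ± 0.20 in ARF10 seeds (difference 0.40, SE 0.16, adjusted p = 0.426 by limma). XTH16 differed by 0.09, and EXGT-A3, also called XTH27 and known from leaf veins, by 0.09. Against Col-0 in mARF10 seeds these genes differed by 0.20, 0.21 and 0.13. Between ARF10 and Col-0 the values were -0.19 for XTH32, 0.12 for XTH16 and 0.05 for EXGT-A3. The relative that was lower in mARF10 than in ARF10, as XTH18 and XTH33 were, was XTH19 (-0.18, SE 0.31). The differences of XTH16 (SE 0.10) and EXGT-A3 (SE 0.13) from ARF10 were smaller than their SE, so their sign is uncertain. Whether XTH18 and XTH33 differed from their relatives was not tested.

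In gene order XTH18 lies between XTH24, which had no probe set named here, and XTH19, a close relative in sequence. Over the 9 arrays XTH18 and XTH19 had an r of -0.14, and 0.53 without Col-0 replicate 2, where XTH18 was at its lowest (9.15) and XTH19 at its highest (12.68). XTH19 was at 11.81 ± 0.47 in mARF10, 11.99 ± 0.18 in ARF10 and 12.05 ± 0.61 in Col-0 seeds, all overlapping. XTH19 was named for its place beside XTH18, and its values were known when it was chosen. None of the nearest named neighbours of EXPA4, EXPA15 and XTH33 belonged to either family.

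**Figure D4:**
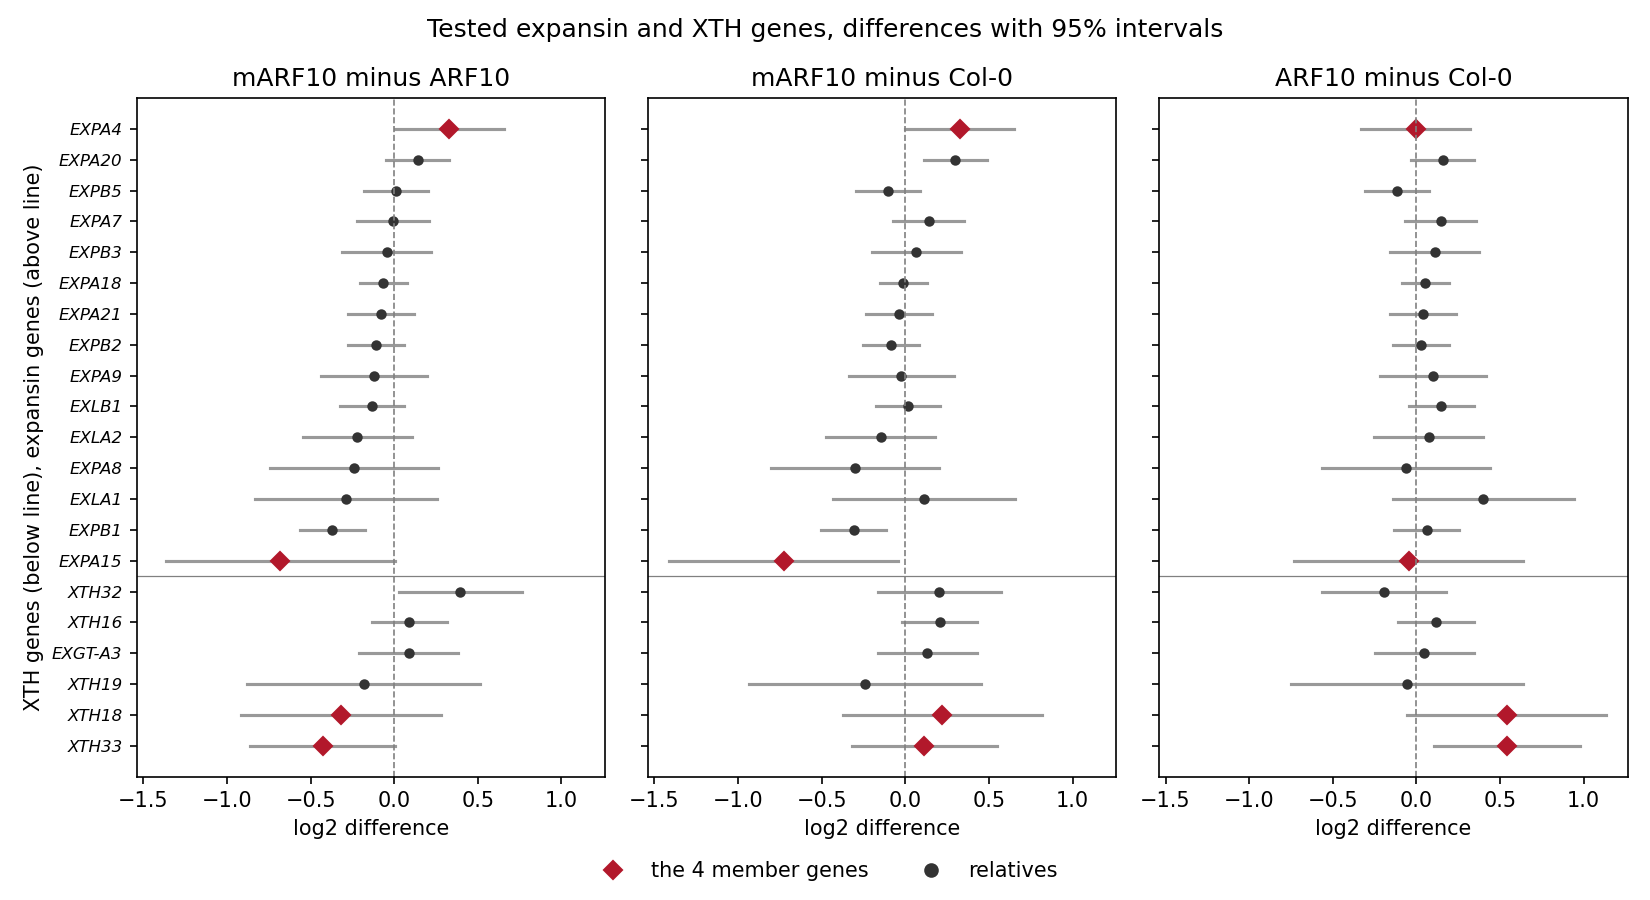
Log2 differences (x axis) with 95% limma intervals for the 15 expansin and 6 XTH genes that passed the filter, in the 3 comparisons; diamonds mark EXPA4, EXPA15, XTH18 and XTH33, and circles their relatives. Between mARF10 and ARF10 most expansin genes lie left of 0, with EXPA4 and EXPA15 at the ends, and no gene passed the adjusted threshold.

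Other wall genes were measured too sparsely to describe as groups. For xyloglucan synthesis 2 of 7 listed genes were measured, CSLC04 and CSLC12, which belong to the family that makes the xyloglucan backbone. They differed between mARF10 and ARF10 by -0.16 and 0.08, and by -0.06 and -0.07 from Col-0. COB, which guides the orientation of cellulose deposition, was the 1 of 8 cellulose genes measured, with log2 differences of 0.02 from ARF10 and 0.26 from Col-0 in mARF10 seeds. None of these passed. The pectin genes ADPG1 and AT5G49180 lay below the filter, and no gene of xyloglucan trimming, of the endo-beta-mannanases or of the plasma membrane proton pumps was named on the array annotation used here.

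Likeness of pattern was also searched beyond the 2 families. Among 8954 other tested probe sets with 1 named gene, the log2 signals most like EXPA4 over the 9 arrays were those of AT5G16940, AT1G19710, AT5G16010, AT4G23590 and AT1G49470, with r from 0.96 to 0.98. Those most like EXPA15 were AT3G60070, AT5G15550, AT5G37590, AT1G71850 and AT4G23620 (0.96 to 0.98). The most opposite to EXPA15 were MSRB6, ZW9 and AT1G66620, at -0.98 to -0.99, and to EXPA4 they were AT2G19390, AT1G31910 and AT1G54730, at -0.97 to -0.98. For XTH18 the nearest were LSM6B, AT1G72230, AT2G24580, AT5G38700 and AT4G22050 (0.92 to 0.93), and the most opposite AT4G10730, AT2G04050 and AT1G02260 (-0.90 to -0.92). XTH33 was followed most closely by AT4G33960 (0.98), then SDRB, AT1G22040, AT1G19330 and AT1G53345 (0.92 to 0.95), and opposed by AT1G10650, AT5G06580 and AT2G04540 (-0.88 to -0.89). These are the extremes of a search over many probe sets and few arrays, and they describe likeness on these arrays alone. Without Col-0 replicate 2 the r of the same 5 nearest genes ran from 0.94 to 0.98 for EXPA4, 0.93 to 0.97 for EXPA15, 0.86 to 0.92 for XTH18 and 0.91 to 0.99 for XTH33. That of the 3 most opposite genes ran from -0.97 to -0.95, -0.98 to -0.97, -0.95 to -0.82 and -0.93 to -0.88, in the same order of the 4 genes.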

How the data were processed

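Total RNA of whole germinating seeds was phenol-extracted, and 5 µg was amplified and labelled with biotin for a 1-colour array, per the labels' protocols. The authors deposited 1 log2 signal per probe set and array; the values spanned 3.70 to 14.78, from which base 2 was taken, and the method of summary and normalization is not given in the sources used here. Array medians lay between 7.06 and 7.11, and no further normalization was applied. The number of arrays limits the precision, and detection was not assessed.

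Of 22810 probe sets, 64 controls were left out. Tests covered the 15922 whose mean over the 9 arrays reached the 30th percentile (5.72). The naming table gave 13513 probe sets 1 gene and 503 several, with 8730 unnamed; 13436 matched the TAIR10.1 gene table, used for names and gene order. limma 3.58.1 in R 4.3.3 was fitted over all 9 arrays with 1 mean per genotype (6 residual degrees of freedom, 3.11 from moderation), 2-sided, with Benjamini-Hochberg adjustment. The script was tested on simulated data. Array weights were estimated gene by gene, since limma's default estimate did not converge.

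The members and lists were chosen with earlier results of these data known. Named are the 4 genes, the relatives with the 3 smallest p per family and comparison, measured genes of the wall lists, and the 5 probe sets most and 3 least like each member.

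Deviations from the genotype mean correlated between same-numbered ARF10 and Col-0 arrays in every pair (0.19 to 0.49), so the numbers were taken to pair these genotypes. They were not taken to pair mARF10 arrays, where the correlation was below 0 for 2 of the pairs (-0.08 with ARF10 and -0.17 with Col-0, both replicate 1). Replicate 2 of mARF10 nevertheless reached 0.16 with ARF10 and 0.48 with Col-0, and replicate 3 reached 0.25 and 0.24. Both replicate 3 values were above that of ARF10 with Col-0 (0.19), and 7 of all 9 pairs were over 0.1. The choice not to pair mARF10 arrays was therefore not clear-cut. Deviations within a genotype cancel out, so the correlations of the different replicate numbers are not independent of each other. The choice of pairs came from the same values that were then tested, so a smaller SE in a paired fit is no independent support.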

Additional observations from a re-analysis of the deposited data

How the results depend on the processing

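Each difference of the 4 genes was recomputed under 18 alternatives: other filters, normalizations, moderation, array weights, fits of 2 genotypes, the replicate number as a block, and each array left out; the block within 2 genotypes was chosen after seeing the data. Between mARF10 and ARF10 no sign changed, and of the 4 genes only EXPA15 was called. It passed with array weights (-0.84, limma adjusted p = 0.0292), a fit that called 784 probe sets. It also passed with the replicate block in the 6 arrays compared (-0.68, limma adjusted p = 0.0331), a fit that called 547. That block uses replicate numbers that were not taken to pair mARF10 arrays. With the block over all 9 arrays the limma adjusted p was 0.248. Leaving out arrays gave 0.24 to 0.38 for EXPA4, -0.87 to -0.50 for EXPA15, -0.55 to -0.10 for XTH18 and -0.57 to -0.30 for XTH33. Between mARF10 and Col-0 the ranges were 0.15 to 0.44, -1.05 to -0.38, -0.011 to 0.43 and -0.060 to 0.29, and with array weights XTH18 was at -0.021 and XTH33 at -0.12. Between ARF10 and Col-0 they were -0.17 to 0.11, -0.37 to 0.30, 0.31 to 0.69 and 0.37 to 0.72. In that comparison EXPA4 was at 0.0096 with quantile normalization and 0.023 with median centring, and EXPA15 at 0.051 with array weights.

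The count of called probe sets moved far more. Between mARF10 and ARF10 it was 65, 70 with the replicate block, 547 with the block in the 6 arrays compared, 397 in those arrays without it, 784 with array weights, and 1 to 267 with an array left out. It was 2, 27 and 10 without mARF10 replicates 1, 2 and 3, and 5, 3 and 1 without those of ARF10, and 173 and 267 without Col-0 replicates 1 and 2. Between mARF10 and Col-0 it was 0, 82 with array weights and 0 to 14 with an array left out (5 when mARF10 replicate 2 was omitted, and 14, 11 and 1 when Col-0 replicates 1, 2 and 3 were). Between ARF10 and Col-0 it was 0, also with the replicate block, both in the 6 arrays compared, which is the paired fit for these genotypes, and over all 9 arrays, where the block also covers mARF10 arrays not taken as paired. It was 1 with quantile normalization, with trended and robust moderation or with array weights; leaving out arrays gave 0 to 19, the most without Col-0 replicate 1. Beside these counts of 0, 1697 probe sets had an unadjusted p under 0.05 between mARF10 and Col-0, and 739 between ARF10 and Col-0. The replicate block changed no other call of the 4 genes, and the cause of these shifts was not tested.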

Other observations

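Some relatives tracked the 4 genes across the arrays; they were picked after their values were seen. XTH32 ran opposite to EXPA15, with an r of -0.88 over the 9 arrays and -0.92 without Col-0 replicate 2, and along with EXPA4 (0.81 and 0.84). For scale, 3.57% of all tested probe sets had an r with EXPA15 at least as low as that of EXPA4 (-0.88). EXPA15 itself correlated with the 1st principal component at a size of 0.88. Shares were not worked out for the relatives. EXPA8 followed EXPA15 (0.87 and 0.77), and its Col-0 signals were 10.48, 11.54 and 10.80. Without Col-0 replicate 2 it was closer to XTH33, with an r of 0.91 (0.25 over the 9 arrays). With XTH18 it had -0.29 over the 9 arrays and 0.72 without that array. The expansin-like gene EXLA1 followed XTH33 (0.86 both with and without that array) and also XTH18 (0.71 with and 0.85 without it). For EXLA1 the log2 differences were -0.29 between mARF10 and ARF10 and 0.40 between ARF10 and Col-0, neither of which passed.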
